A study of Mus musculus with 2 samples.

Results

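The cells described here are the cycling cells of the mouse submandibular gland, a major salivary gland. A cell counted as cycling when it held at least 3 UMIs, summed over 6 genes of dividing cells (Mki67, Top2a, Cdk1, Birc5, Ube2c and Cenpf), a UMI being a tag that marks 1 captured RNA molecule. This rule found 68 of 4086 kept cells: 67 of 1663 in the p63 WildType (WT) library and 1 of 2423 in the p63 KO library. The measured values themselves chose these cells, so the levels of the 6 genes in them are a description only.

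Both mice were adult, 12 weeks of age, and each genotype is 1 library of the 10x Genomics Chromium 3' v2 kit. The protocol describes dissociation of the entire gland, while the source label reads epithelial progenitor cells. Both libraries held epithelial, endothelial, immune and erythroid classes. The labels do not say how, when or in which cells p63 was removed, nor whether glands were pooled. The title of the series asks whether p63 keeps up the proliferation of salivary stem or progenitor cells and names follistatin (Fst), a secreted protein that binds activin. With 1 library per genotype there is no replicate check, no test between genotypes was made, and all intervals below are 95% intervals that cover counting error only. UMIs without replicate libraries say nothing about the spread between animals.

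A dividing cell copies its DNA in S phase, using replication enzymes, and then passes through G2 into mitosis, when cyclin B with its kinase Cdk1, the kinetochore and the chromosome passenger complex take over. D cyclins and their kinases act earlier, in G1, and are opposed by the inhibitors of the Cdkn families. In the submandibular gland, keratin 5 and keratin 14 mark basal cells of the ducts, Kit marks intercalated duct cells, Smgc and Mucl2 are secretory genes of acini and their precursors, and the granular convoluted tubule makes kallikreins and Egf. The gene Trp63 encodes p63, which controls transcription in the basal layer of many epithelia.

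The libraries differed in depth. Kept cells had medians of 3406 UMIs in WT and 2088 in KO, and the shallowest kept cells held 2175 and 1077. Libraries shared 7 kept barcodes, none of them a cycling cell. Trp63 itself had 149 UMIs in 121 of 1663 WT cells (18.8 CPM, UMIs per 1000000 UMIs, 15.9 to 22.1) and 20 UMIs in 19 of 2423 KO cells (2.91 CPM, 1.78 to 4.49). These are 3' tags, and since the deleted part of the gene is not stated they do not check the deletion. Doublet calling marked only 1 WT and 4 KO cells, none cycling, and these cells were kept.

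Cycling cells were 4.03% of WT cells (67 of 1663, exact binomial interval 3.14 to 5.09%) and 0.0413% of KO cells (1 of 2423, 0.00104 to 0.230%). To set the libraries at 1 depth, each cell was thinned at random to 1000 UMIs. After thinning, 64 WT cells (3.85%, 2.98 to 4.89%) and 11 KO cells (0.454%, 0.227 to 0.811%) still held at least 1 UMI of the 6 genes. Over all kept cells the 6 genes summed to 659 UMIs in WT (83.1 CPM, 76.9 to 89.7) and 31 in KO (4.51 CPM, 3.07 to 6.40), an 18.4-fold difference in level (12.9 to 27.3). Among barcodes that failed the cell filter, 1 of 307 in WT and 0 of 2303 in KO reached 3 UMIs.

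The threshold fell in a sparse part of the distribution. In WT, 12 cells held exactly 3 UMIs of the 6 genes, just inside, and 8 cells held exactly 2, just outside. In KO, no cell held exactly 3, 3 cells held 2 and 21 held 1. The median WT cycling cell held 6 UMIs and the highest 32. Of the 67, 66 expressed at least 2 of the 6 genes, 40 at least 4 and 8 all 6.

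**Figure D1:**
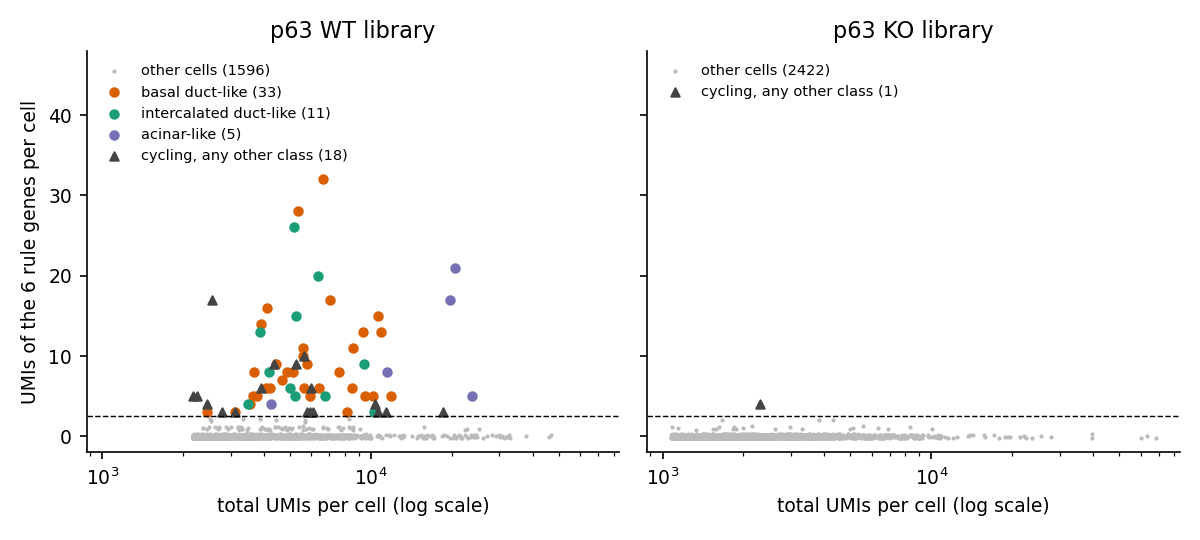
UMIs of the 6 genes per cell against total UMIs per cell (log axis), in the WT (left) and KO (right) library; each point is a cell, cells under the threshold are spread slightly in height for visibility, and the dashed line is the threshold. Cells above the line reach 32 UMIs in WT, while the single KO cell sits at 4.

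The 6 genes act late in the cycle. Top2a, the topoisomerase that untangles replicated DNA, had a UMI in 52 of the 67 WT cycling cells, with 110 UMIs among them. Ube2c, a ubiquitin-conjugating enzyme of the anaphase-promoting complex, was seen in 53 cells with 169 UMIs, up to 18 in a cell. Birc5 (survivin, of the chromosome passenger complex), Cdk1 and the kinetochore-associated Cenpf were seen in 41, 40 and 40 cells. Mki67, the proliferation antigen Ki-67, was seen in the fewest, 32 cells, with 54 UMIs. In KO over all cells, Mki67 had 19 UMIs, Ube2c 4, Cdk1 3, Cenpf 3, Top2a 2 and Birc5 none. As a description of these 2 libraries, Mki67 made up 10.6% of the UMIs of the 6 genes in WT (70 of 659, 8.37 to 13.2%) and 61.3% in KO (19 of 31, 42.2 to 78.2%), of which 4 lay in the single KO cell that the rule picked. This comparison was chosen after the values were seen.

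Promoters of many late-cycle genes are known to carry CCAAT boxes and the cell cycle homology element (TTTGAA or TTCGAA). For 3 of the 6 genes, Top2a, Mki67 and Cenpf, the 150 bases before the RefSeq start are printed here on the gene's strand (RefSeq, GRCm38.p6). They lie at chr11:99024190-99024339, chr7:135716380-135716529 and chr1:189688087-189688236, all 3 on the minus strand. Capitals mark the cell cycle element (in either of its forms) and the CCAAT box, on either strand.
Top2a: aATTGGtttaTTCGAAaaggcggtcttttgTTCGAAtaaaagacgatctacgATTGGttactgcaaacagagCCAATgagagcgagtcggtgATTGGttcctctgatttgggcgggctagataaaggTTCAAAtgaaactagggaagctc
Mki67: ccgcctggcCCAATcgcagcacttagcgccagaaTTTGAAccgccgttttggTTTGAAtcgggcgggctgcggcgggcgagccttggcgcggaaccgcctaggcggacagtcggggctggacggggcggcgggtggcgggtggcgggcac
Cenpf: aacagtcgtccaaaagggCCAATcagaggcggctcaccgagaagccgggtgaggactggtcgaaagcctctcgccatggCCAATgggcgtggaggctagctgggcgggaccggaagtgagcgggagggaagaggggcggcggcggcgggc
Over the full 250 bases before the start, 4 of the 6 genes held TTTGAA or TTCGAA and 5 held CCAAT, on either strand, against 17.1% and 33.8% of 32851 RefSeq promoters. Birc5 held no match in this window and Cenpf held CCAAT only, so the 6 genes do not all share these exact letters there. Bases after the start and other forms of the elements were not searched. These matches are a description of letters, and the deposited RNA counts do not measure binding.

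Identity was taken from clusters of each library on its own, built from genes without the cell cycle lists and named from marker sets; names end in "-like" because they rest on RNA. In WT, 33 of the 67 cycling cells (49.3%, 36.8 to 61.8%) were basal duct-like, against 23.4% of the other WT cells (21.3 to 25.5%). That share depended on how identity was taken. With cell cycle genes kept for clustering, 54 of the 67 gathered in 1 unnamed cluster and 2 (2.99%) were basal duct-like, against 24.5% of other cells. With identity from each cell's own marker sum, 9 (13.4%, 6.33 to 24.0%) were basal duct-like, against 12.3% of other cells (10.8 to 14.1%). That call took the marker set whose share of the cell's UMIs was largest relative to its mean over cells. A few UMIs of a rarely seen set can decide it, and 1 cell with 37 Krt14 UMIs was named Schwann cell-like. By the clusters built without the cell cycle lists, a further 11 (16.4%) were intercalated duct-like and 5 (7.46%) acinar-like. Another 7 lay in an unnamed cluster, 4 were endothelial-like, 3 NK or innate lymphoid-like, 2 macrophage-like, 1 myoepithelial-like and 1 erythroid-like. Intercalated duct-like cells made up a similar share of the cycling cells (8.49 to 27.5%) as of the other cells (18.6%). Acinar-like cells made up less of the cycling cells (2.47 to 16.6%) than of the other cells (21.0%, 19.0 to 23.1%). The epithelial adhesion gene Epcam had a UMI in 62 of the 67.

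Seen by class, 33 of 406 basal duct-like WT cells were cycling (8.13%, 5.66 to 11.2%), 11 of 308 intercalated duct-like cells (3.57%, 1.80 to 6.30%) and 5 of 340 acinar-like cells (1.47%, 0.479 to 3.40%). No cell was cycling among 152 granular convoluted tubule-like cells, which allows a share of up to 1.97%, nor among 43 ionocyte-like or 35 striated or excretory duct-like cells. The 152 granular convoluted tubule-like cells, the kallikrein-making cells, held 0 UMIs of the 6 genes at a median of 2674 UMIs per cell. The interval of that level reached 8.51 CPM, and free RNA was not measured. By summed level the basal duct-like class came first at 204 CPM (exact Poisson interval 183 to 227), followed by endothelial-like cells at 150 CPM (105 to 209) and NK or innate lymphoid-like cells at 141 CPM (88.1 to 213), whose intervals overlap it. Intercalated duct-like cells had 86.5 CPM (72.1 to 103) and acinar-like cells 24.0 CPM (18.5 to 30.6), separate from each other and from the basal class. All these levels are relative to total UMIs, of which secretory RNA is a part, in acinar-like cells a large part. In the unnamed cluster 7 of 84 cells were cycling (8.33%) but the level was 89.9 CPM, so its share gives it no place in the order.

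**Figure D2:**
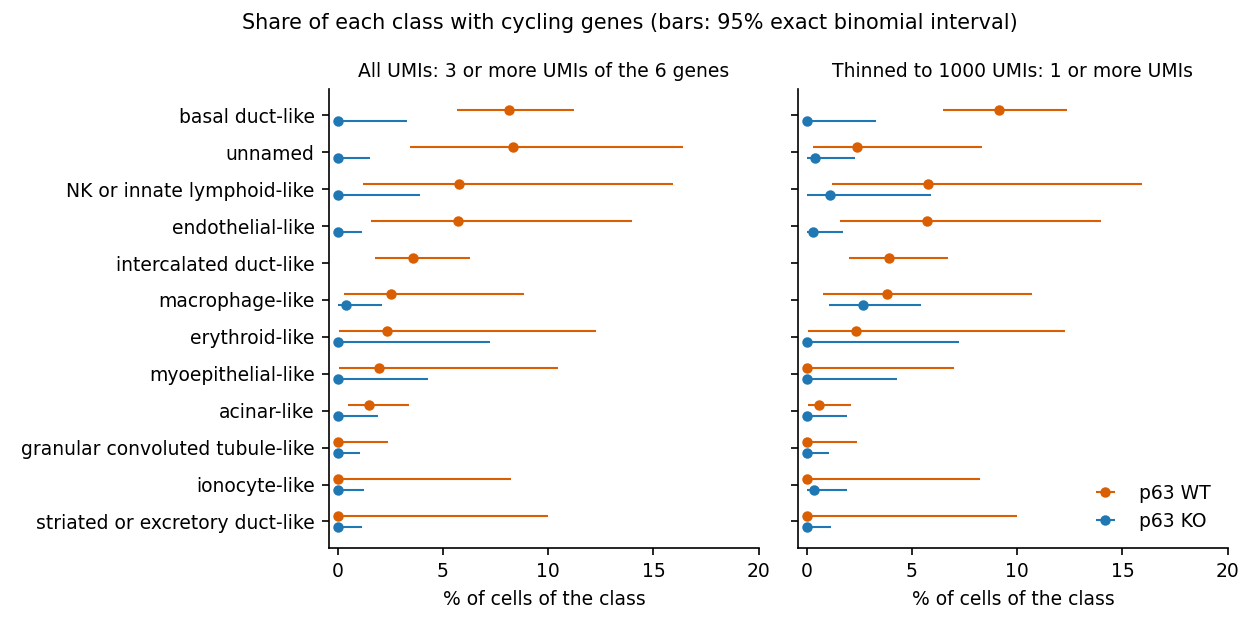
Share of each class that held 3 or more UMIs of the 6 genes with all UMIs (left) and 1 or more after thinning to 1000 UMIs (right), in WT (orange) and KO (blue), with points for the share and bars for the exact binomial interval; the intercalated duct-like class has no KO point because no KO cluster took that name at this resolution, and KO fibroblast-like and adipocyte-like cells, with 0 cycling, are not drawn. Basal duct-like cells stand at 8.13% and 9.11% in WT and at 0 in KO.

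Cycling cells were deeper than their neighbours, with a median of 5599 UMIs and 1882 genes against 3366 UMIs and 1185 genes in other WT cells. Thinning was therefore applied by class too, with 1 UMI as the threshold, a setting chosen after the data were seen. Basal duct-like cells then had 37 of 406 (9.11%, 6.50 to 12.3%), intercalated duct-like cells 12 of 308 (3.90%, 2.03 to 6.71%) and acinar-like cells 2 of 340 (0.588%, 0.0713 to 2.11%). The 3 epithelial classes stood in this order at equal total UMIs too, with the basal interval apart from the acinar one and overlapping the intercalated one. Equal totals do not leave equal room for cycling genes, because secretory RNA takes part of them. Mucl2 alone stood at 329030 CPM in acinar-like and 5566 CPM in basal duct-like WT cells. The acinar-like place in this order was not tested with secretory genes left out. Acinar-like cycling cells were the deepest of all, with a median of 19694 UMIs against 4241 in other acinar-like cells. At equal depth 2 acinar-like cells in place of 5 passed, at the lower threshold of 1 UMI.

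Of the 33 basal duct-like cycling cells, 32 held a UMI of Krt5, Krt14, Krt15 or Krt17 and 31 held at least 4, with a median of 17 over these 4 basal keratins, against 15 in the other 373 cells of the class. By its own marker sum, however, a cell of the class was named basal in 9 of 33 cycling cells (27.3%) and 187 of 373 others (50.1%), and fibroblast-like in 15 and 112. Krt14 was seen in 29 of the 33 with a median of 6 UMIs and a range of 0 to 37. In the other basal duct-like cells it was seen in 331 of 373, with the same median of 6. These keratin counts are UMIs per cell without correction for depth, and the cycling cells were deeper (median 5599 against 3305 UMIs). Relative to total UMIs, Krt14 and Krt17 were lower in the cycling cells, with the ratios given further below. Krt17, a keratin of basal and stressed epithelium, was seen in 29 (median 4, highest 32), Krt5 in 25 and Krt15 in 22. Trp63 had 12 UMIs in 8 of the 33 (58.7 CPM, 30.3 to 103) and 84 UMIs in 70 of the 373 (56.4 CPM, 45.0 to 69.8), levels that overlap. Both basal clusters contributed: 19 of 236 cells (8.05%, 4.92 to 12.3%) in the cluster led by F3, Fosl1 and Timp1, and 14 of 170 (8.24%, 4.58 to 13.4%) in the cluster led by Pthlh, Il33 and Sostdc1. These shares lie well within each other's intervals.

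Cells were also gated on 1 gene, without any cluster; the gates were added after the data were seen. Of 414 WT cells with at least 3 Krt14 UMIs, 37 were cycling (8.94%, 6.37 to 12.1%), and of 70 such KO cells none was, which allows up to 4.29%. Among cells that passed a Krt14 gate of 1 UMI after thinning, 28 of 383 in WT (7.31%, 4.91 to 10.4%) and 0 of 80 in KO (exact interval up to 4.51%) held at least 1 UMI of the 6 genes. Of cells with at least 3 Krt17 UMIs, 27 of 334 in WT (8.08%, 5.39 to 11.5%) and 0 of 100 in KO were cycling. Of cells with a Trp63 UMI, 11 of 121 in WT (9.09%, 4.63 to 15.7%) and 0 of 19 in KO were. The last KO count is too small to bear on the difference, since 0 of 19 allows a share of up to 15.8%.

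The 11 intercalated duct-like cycling cells were of another kind. Wfdc18, a secreted whey acidic protein family gene that led the larger of the 2 clusters in this class, was seen in all 11. It had 1 to 306 UMIs and a median of 192. Kit was seen in 8 of 11, Krt14 in 2 with 1 UMI each, and Krt5 and Trp63 in none. Smgc, the submandibular gland protein C of immature acinar and some duct cells, reached 111 to 1149 UMIs in 4 of them and 0 to 3 in the other 7. Of those 4, 1 held 619 Smgc UMIs with 1 of Wfdc18 and none of Kit, and its own markers named it acinar. The other 3 held 54 to 306 Wfdc18 UMIs beside Smgc. When both libraries were clustered together, 3 of the 11 were named acinar-like instead. In that joint clustering 35 WT cycling cells were basal duct-like, 13 intercalated duct-like and 8 acinar-like. The 13 came from 240 intercalated duct-like WT cells (5.42%, 2.92 to 9.08%). By gates, 15 of 227 WT cells with a Kit UMI were cycling (6.61%, 3.75 to 10.7%), against 0 of 175 KO cells (up to 1.71%). Of cells with at least 20 Wfdc18 UMIs, 20 of 387 in WT (5.17%, 3.18 to 7.87%) and 0 of 326 in KO (up to 0.920%) were cycling. After thinning, with 1 UMI as both thresholds, the Kit gate gave 3 of 66 in WT (4.55%, 0.947 to 12.7%) and 0 of 60 in KO (0 to 5.96%), which overlap. The Wfdc18 gate gave 25 of 652 (3.83%, 2.50 to 5.61%) and 1 of 600 (0.167%, 0.00422 to 0.925%).

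Of the 5 acinar-like cycling cells, 4 held 4293 to 12000 UMIs of Mucl2, a mucin-like secretory product, far above the 8 to 55 UMIs in the basal duct-like cycling cells. The remaining cell had 26 Mucl2 UMIs and 869 of Smgc. The 4 Mucl2-rich cells came from a cluster of 158 (2.53%, 0.694 to 6.35%) and the Smgc-rich cell from a cluster of 182 (0.549%, 0.0139 to 3.02%), with overlapping intervals. Mucl2 had a UMI in every one of the 1663 WT cells, so low Mucl2 counts mark no identity here. None of the 5 had a UMI of Krt5, Krt14, Krt17, Trp63 or Kit.

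**Figure D3:**
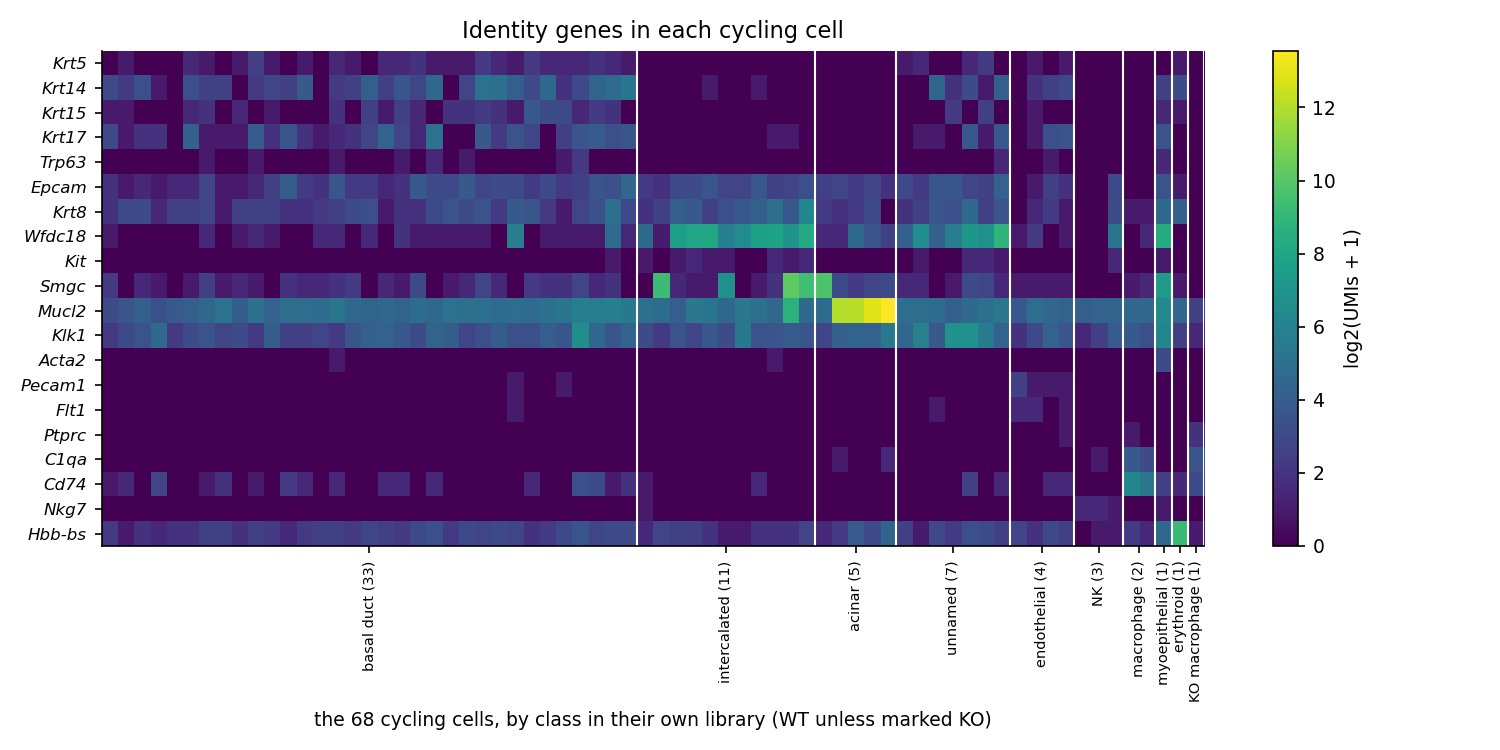
UMIs of 20 identity genes (rows, colour as log2 of UMIs plus 1) in each of the 68 cycling cells (columns), grouped by class in their own library, with the KO cell last. Basal keratins are seen in 32 of the 33 basal duct-like columns, Wfdc18 in all 11 intercalated duct-like ones, and Mucl2 reaches 12000 UMIs in the acinar-like group.

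The smaller classes were less clean. The endothelial-like group had 1 cell with 5 Pecam1 UMIs and no Krt14, Krt17 or Epcam, while the other 3 held 1 Pecam1 UMI each together with 3 to 7 Krt14 and 1 to 10 Krt17 UMIs. The erythroid-like cell held 575 UMIs of the beta-globin Hbb-bs and also 16 of Krt8 and 8 of Krt14, and joined the basal duct-like class in the joint clustering. The myoepithelial-like cell held 7 Acta2 (smooth muscle actin) UMIs beside 332 of Wfdc18. The 3 NK or innate lymphoid-like cells held 1 or 2 UMIs of the granule gene Nkg7, 1 to 7 of the leukocyte gene Cd52 and none of the pan-leukocyte gene Ptprc. Of these cells, 1 had 38 Wfdc18 UMIs, and the other 2 held no Epcam or Krt8. The 2 macrophage-like cells held 13 and 8 UMIs of the complement gene C1qa and 76 and 40 of Cd74, with no Krt14 or Epcam. Over all WT cycling cells, epithelial and immune markers were both present in 3 of 67 (4.48%), against 59 of 1596 other cells (3.70%), and epithelial and endothelial markers in 3 (4.48%) against 51 (3.20%). Doublet calling, which marked few cells in either library, marked no cycling cell. Whether the cells with mixed markers were doublets or held free RNA was not tested beyond that.

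The 1 KO cycling cell was macrophage-like. All 4 of its rule UMIs were Mki67, and it held no UMI of the other 5 genes. Of its 2298 UMIs, 2 were on the S phase list and 1 on the G2/M list, while C1qa had 10, Cd74 7, Ptprc 3, and Epcam and Krt8 0. By these other genes of dividing cells the label of a cycling cell was not borne out. It was lost when 2 of the 6 genes were required, when Mki67 was left out or at a threshold of 5 UMIs. KO macrophage-like cells, this cell included, held 15 of the 31 KO rule UMIs, 13 of them Mki67 (86.7%, 59.5 to 98.3%). In WT macrophage-like cells 3 of 13 were Mki67 (23.1%, 5.04 to 53.8%). The cell's own 4 UMIs are in these KO counts, and the other KO macrophage-like cells held 11 rule UMIs. The summed level of all macrophage-like cells was 33.8 CPM (18.9 to 55.8) in KO and 55.6 CPM (29.6 to 95.1) in WT, with overlapping intervals. No other KO class had more than 6 such UMIs.

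No KO epithelial class held a cycling cell. There were 0 of 110 basal duct-like cells (up to 2.73%), 0 of 192 acinar-like cells (up to 1.56%), 0 of 353 granular convoluted tubule-like cells, 0 of 312 striated or excretory duct-like cells, 0 of 288 ionocyte-like cells, 0 of 84 myoepithelial-like cells and 0 of 240 cells of an unnamed cluster. This unnamed KO cluster was led by Esp4, Wfdc18 and Esp18, and Wfdc18, Esp4 and Gjb2 were among the 10 leading genes both there and in the larger WT intercalated duct-like cluster. At a finer clustering (resolution 2) a KO cluster of 131 cells was named intercalated duct-like from Wfdc18, Kit and Gstt1, and it too held 0 cycling cells. In the 110 basal duct-like KO cells, at a median of 2487.5 UMIs, all 6 genes were at 0 UMIs, against 346 UMIs in 406 WT cells. Set against a floor of 3 counts in the KO class, the WT level was at least 23.9-fold higher, and the exact interval of the ratio, which allows for counting error on both sides, began at 19.4. The 2 basal classes differed in other ways too, and in median depth (3481 UMIs in WT). Krt14 stood at 984 CPM (883 to 1094) in KO and 2118 CPM (2050 to 2189) in WT, Krt5 at 14.2 and 305 CPM, and in the joint clustering only 3 KO cells were named basal duct-like.

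Genes that the rule did not use could be compared across the libraries. The G2/M list, 49 genes of mitosis without the 6, summed to 1050 CPM in basal duct-like WT cells and 378 CPM in KO ones, a 2.78-fold higher level in WT (2.33 to 3.34). The S phase list of 34 replication genes summed to 720 and 390 CPM, 1.85-fold (1.55 to 2.22). With the cycling cells set aside, the WT levels fell to 491 and 604 CPM, and the ratios were 1.30 (1.08 to 1.57) for G2/M and 1.55 (1.29 to 1.87) for S phase. In acinar-like cells the G2/M list stood at 165 CPM in WT and 157 in KO, a ratio of 1.05 (0.884 to 1.25). Other lists were lower in WT acinar-like cells, chromatin genes at a ratio of 0.528 and D cyclins, kinases and inhibitors at 0.324, so the G2/M ratio there cannot be read on its own. In basal duct-like cells these 2 lists had ratios of 1.51 and 0.675, and 1.23 and 0.687 with the cycling cells set aside. The basal G2/M and S phase ratios cannot be read on their own either. Over all kept cells the G2/M list was 1.82-fold higher in WT (1.73 to 1.93), and without the cycling cells the ratio was 1.04 (0.975 to 1.10).

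Over all kept cells, 38 of the 49 G2/M genes had an interval of the ratio wholly above 1 (higher in WT), 1 wholly below and 10 holding 1. Of the 34 S phase genes the counts were 17, 7 and 10. Of 19 chromatin genes they were 10, 4 and 5, and of 21 D cyclins, kinases and inhibitors 6, 12 and 3. The share over all genes was not computed, so nothing is read from these counts. The 1 G2/M gene lower in WT was Pttg1 (securin), at 51.6 CPM in WT and 65.3 in KO, and Hjurp, a centromere chaperone, stood at 23.3 and 27.4 CPM. The genes given next were chosen after their values were seen. Ccnb1, cyclin B1, had 47 UMIs in WT, all in cycling cells (27 of 67), and 4 UMIs in 2 KO cells. Cdc20, the activator of the anaphase-promoting complex, had 102 UMIs in 36 of the cycling cells, 15 in 1596 other WT cells and 5 in all KO cells. Cdca3 had 86 UMIs in 41 cycling cells, 9 in other WT cells and 2 in KO. Pbk, a mitotic kinase, had 54, 4 and 0. Foxm1, the transcription factor that drives G2/M genes, had 15 UMIs in 13 cycling cells, 1 elsewhere in WT and 0 in KO. Among S phase genes, Tk1 (thymidine kinase) had 55 UMIs in WT and 3 in KO, and Rrm2 (ribonucleotide reductase) 49 and 5. Among the 7 S phase genes lower in WT, Cdt1, which loads the replicative helicase, stood at 7.06 CPM in WT and 16.3 in KO, and Pcna, the replication clamp, at 29.5 and 46.1 CPM (ratio 0.640, 0.538 to 0.760). Slbp, which binds histone mRNA, stood at 54.1 and 64.9 CPM.

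G1 regulators did not follow 1 direction. Over all kept cells, Ccnd1 (cyclin D1) stood at 157 CPM in WT and 17.6 CPM in KO, 8.92-fold (7.40 to 10.8), Ccnd2 at 84.6 and 41.2 CPM, Cdk4 at 92.5 and 43.1 CPM, and Cdk6 at 48.2 and 15.3 CPM. Ccnd3 was the other way, at 47.7 CPM in WT and 120 in KO. The inhibitor Cdkn1a (p21) stood at 149 CPM in WT and 378 in KO, a WT over KO ratio of 0.395 (0.368 to 0.423), and the antiproliferative genes Btg1 and Btg2 had ratios of 0.631 and 0.645. The libraries hold different mixes of classes, and how far that mix sets these levels was not tested; fewer cells of a type and less RNA per cell cannot be told apart in sums over all cells.

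Within WT, cycling cells were rich in both lists. With 3 UMIs as the minimum, the G2/M list was detected in 66 of 67 (98.5%) and the S phase list in 56 (83.6%, 72.5 to 91.5%), against 261 (16.4%) and 316 (19.8%) of 1596 other WT cells. All 56 with the S phase list also had the G2/M list, 10 had G2/M alone, none had S phase alone and 1, the Smgc-rich acinar-like cell, had neither. The 6 genes of the rule are themselves late-cycle genes. Thinned to 1000 UMIs, 46 (68.7%) and 15 (22.4%) of the 67 passed, against 17 (1.07%) and 23 (1.44%) of the others. The summed G2/M level was 4064 CPM in cycling cells and 288 CPM in other cells, and the S phase level 1285 and 329 CPM.

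Basal duct-like cycling cells had 5125 CPM of the G2/M list (4820 to 5445) and intercalated duct-like ones 5025 CPM (4495 to 5601), which overlap. For S phase the levels were 1560 CPM (1394 to 1741) and 1156 CPM (909 to 1449), whose intervals overlap as well, and 29 of 33 basal and 6 of 11 intercalated cells passed 3 UMIs. Acinar-like cycling cells had 2018 CPM of G2/M (1718 to 2355), apart from both. Their median total was 19694 UMIs, and in the deepest of them Mucl2 alone held 12000 of 23772 UMIs. Counted per cell, the order was another. The median G2/M count was 39 UMIs in acinar-like, 28 in basal duct-like and 21 in intercalated duct-like cycling cells. How far secretory RNA lowers the acinar-like CPM was not tested, so no weaker G2/M expression is read from it.

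**Figure D4:**
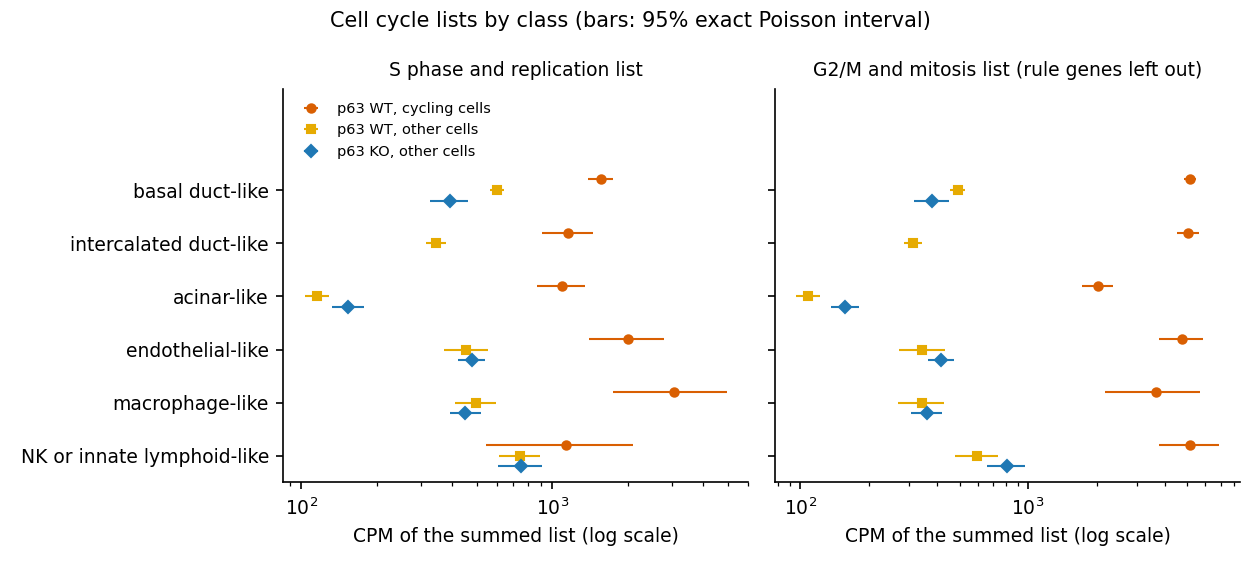
Summed level (CPM, log axis) of the S phase list (left) and the G2/M list without the rule genes (right) in 6 classes, for WT cycling cells (orange circles), other WT cells (yellow squares) and KO cells under the threshold (blue diamonds), with exact Poisson intervals; no KO cluster took the intercalated duct-like name at this resolution. The 33 basal duct-like cycling cells reach 5125 CPM of G2/M, against 491 in other WT and 378 in KO basal duct-like cells.

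What the basal duct-like cycling cells express beyond the cycle was described by setting their summed UMIs against those of the other 373. A gene passed the size rule, which stands in for a test, with 50 or more UMIs over the 2 sums and an exact interval of the ratio wholly beyond 2-fold. Of 3481 genes with enough UMIs, 33 were higher in cycling cells (0.948%) and 4 lower (0.115%), 1.06% in either direction. With TMM scaling, which moved the median log2 ratio of all genes from -0.01 to -0.15, the numbers were 30 and 8. The contrast is that of the rule, so cell cycle genes had to be higher and nothing is read from their number; genes low in other cells reached 50 UMIs mainly through the cycling cells. The cycling cells had a median of 5599 UMIs and the others 3305. Thinned to 1000 UMIs a cell, 12 of the 33 higher genes still had 50 UMIs and 10 of these passed. Without the cycling cell that had a gene's highest count, a check added after the data were seen, 29 of the 33 passed. Smc2, Smc6, Rad21 and Anp32e did not.

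Among mitotic genes, 7 of the 9 that could be assessed (of 49 listed) were higher. Cdc20 had 59 UMIs in 18 of the 33 cycling cells and 10 UMIs in 8 of the 373 others, a 43.0-fold higher level (21.8 to 94.2). Cenpa, the centromeric histone, had 63 UMIs in 22 cells and 17 in 16, 27.0-fold (15.6 to 49.2). Cks1b and Cks2, subunits of the cyclin-dependent kinases, were 8.76-fold and 5.51-fold higher, and the condensin subunits Smc4 and Smc2 8.09-fold and 7.87-fold. Pttg1, securin, was among the 2 that did not pass, with 6 UMIs in 6 cycling cells and 66 in 62 others. Of S phase genes, 2 of 5 assessed (of 34) passed: Dut, the dUTPase, at 4.43-fold (3.18 to 6.13) and the replication fork protein Tipin at 4.50-fold (2.48 to 7.98). Pcna did not, with a ratio of 1.61 (0.853 to 2.84).

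Among chromatin and cytoskeleton genes of dividing cells, 10 of 15 assessed (of 19) were higher. H2afz, the histone variant H2A.Z, had 513 UMIs in all 33 cycling cells and 749 in 284 of the others, 4.99-fold (4.45 to 5.59). H2afx was 14.6-fold higher, Hmgb2 5.61-fold, and the tubulins Tubb5 and Tuba1b 6.98-fold and 5.22-fold. Stmn1 (stathmin, a microtubule regulator) was 7.03-fold higher (5.75 to 8.60). Hist1h2ap was 42.3-fold higher, an uncertain value because replication histones are near-identical copies. Genes off these lists included Pclaf, the PCNA clamp-associated factor, at 12.7-fold and the long noncoding RNA Lockd, at 18.2-fold.

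Lists outside the cycle held no gene past the rule, which at 1.06% of all genes is also what lists of this size would mostly give, so nothing is read from these counts. None of 19 assessed basal and p63-associated genes (of 24) passed in either direction, with a median log2 ratio of -0.35 against -0.01 over all 3481 genes. Krt14 had a ratio of 0.785 (0.701 to 0.877), Krt17 0.618 (0.536 to 0.710), Sfn (stratifin) 0.603 (0.504 to 0.717) and Trp63 1.04 (0.517 to 1.92). None of 6 progenitor-associated genes passed; Sox9, a transcription factor of salivary progenitors, had a ratio of 1.56 (1.20 to 2.01) and Cd44 2.37 (1.20 to 4.42). None of the 11 D cyclins, kinases and inhibitors passed; Ccnd2 had 0.620 (0.426 to 0.877) and Cdkn1a 1.07 (0.832 to 1.35). Ribosome biogenesis, glycolysis and oxidative phosphorylation had none of 14, 12 and 15, with medians of -0.32, 0.03 and 0.06.

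The stress and immediate early list had none of 17 past the rule either. Its log2 ratios ran from -0.98 to -0.06, with a median of -0.48 against -0.01 over all 3481 genes. The share of all genes with a log2 ratio below 0 was not computed. Other lists had low medians too, such as -0.35 for the basal and p63-associated list, so this is not particular to stress genes. Fos had 248 UMIs in the cycling and 3456 in the other cells, a ratio of 0.523 (0.458 to 0.595), and Hspa1a, a heat shock chaperone, 0.505 (0.441 to 0.575). The activin, follistatin and TGF-beta list had 6 assessed genes with a median of -0.52 and none past the rule, of which Id2, an inhibitor of DNA binding, had a ratio of 0.363 (0.178 to 0.662). Fst had too few UMIs to assess: 6 in 2 of the 33 cells (29.3 CPM, 10.8 to 63.9) and 24 in 13 of the 373 (16.1 CPM, 10.3 to 24.0). Over all WT cells it had 10 UMIs in 4 of the 67 cycling cells, and in KO 72 UMIs in 46 of 2423 cells.

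Of the 4 genes lower in cycling basal cells, only Nupr1 kept the call when the non-cycling cell with the gene's highest count was left out. The 4 were Slpi, a secreted protease inhibitor with 0 UMIs against 59, the chemokine Cxcl1 (27 and 591 UMIs, ratio 0.333), the stress protein Nupr1 (146 and 2742, ratio 0.388, 0.326 to 0.458) and Smgc (73 and 1363, ratio 0.390). Smgc is an acinar and duct product present at low counts in 26 of the 33 and 288 of the 373 cells, with a highest count of 7 in the former and 727 in the latter. Without the cell of 727 UMIs the levels of Smgc were 357 and 429 CPM, a ratio of 0.832 (0.644 to 1.06). Without their top cells Slpi had an upper bound of 0.545 and Cxcl1 a ratio of 0.344 (0.225 to 0.506). Nupr1 had 0.398 (0.334 to 0.470), and 0.281 (0.166 to 0.447) after thinning.

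**Figure D5:**
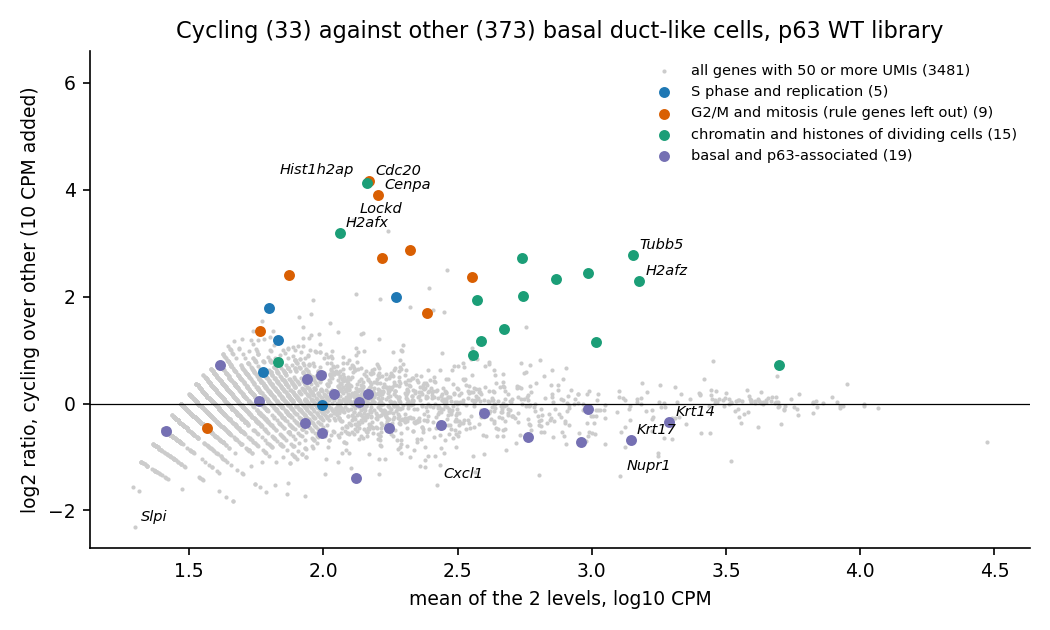
Log2 ratio of the level in 33 cycling over 373 other basal duct-like WT cells (10 CPM added to both) against the mean of both levels (log10 CPM) for 3481 genes, with 4 lists in colour. G2/M and chromatin genes lie highest, with Cdc20 at 4.16, and the 19 basal and p63-associated genes scatter about a median of -0.35.

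For completeness the single KO cell was set against the 67 WT cells in the same way. Of 1019 genes with enough UMIs, 30 were higher in KO (2.94%) and 7 lower (0.687%), 3.63% in either direction. With TMM scaling the split turned to 3 higher and 265 lower, so these counts carry no direction. The higher ones were led by Cxcl2, Ccl4, Cxcl16, Cxcl1 and Apoe, chemokines and a lipid carrier of macrophages, with 28 Cxcl2 and 75 Ccl4 UMIs in that 1 cell, and the lower ones were gland products such as Smgc, Wfdc18, Car6 and Mucl2. This contrasts 1 macrophage-like cell with mostly epithelial cells and is no comparison of genotypes within a cell type.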

How the data were processed

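The authors deposited a table of raw UMI counts per gene and barcode for each library (whole numbers, read from the files themselves). The submitters' processing notes name bcl2fastq 2.19.1, Seurat 3.1.2, build mm10 and Cell Ranger 2.1.0 without a role, and do not give how barcodes were selected. The members and gene lists were chosen with earlier results of these data known. Of 27998 identifiers 27645 received a symbol, and 4 marker symbols found no match. Cells needed 200 genes or more, and less than 20% of their UMIs from mitochondrial genes. Clustering used scanpy 1.11.5 and leidenalg 0.10.2 (2000 variable genes, 30 components, 15 neighbours, resolution 1), per library. A cluster was named when 3 or more markers of a set were at least 2-fold up, thresholds set after the clusters were seen. Doublets called by Scrublet were kept. Shares have exact binomial and levels exact Poisson intervals, and ratios of levels the exact conditional interval. A share of 0 is given with the limit of 3 counts. The size rule was checked on simulated counts. Cycling and other cells were compared in classes with enough cycling cells, which only the basal duct-like WT class had. TMM scaling by edgeR 4.0.16 was an alternative. Named genes were the 6 rule genes, Trp63, Fst, up to 10 highest and 10 lowest log2 ratios past the size rule, and the list members with the most UMIs or past that rule; other genes named in the text were chosen after their values were seen.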

Additional observations from a re-analysis of the deposited data

How the results depend on the processing

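Over 107 recomputed values, 80 stayed within their counting interval or within 1.5 times the count, and 27 did not. The order of classes and the split of calls turned in the cases given here. Whether single called genes changed sign was not checked. The WT share of cycling cells was 3.01% at 5 UMIs and 0.782% when thinned to 1000 UMIs at 3 UMIs; the KO share was 0 at 5 UMIs, with 2 of the 6 genes required and without Mki67, and 0.454% when thinned at 1 UMI. The basal share of WT cycling cells was 49.3 to 58.0% under the other settings, but 2.99% (ducts 1.49%) when cell cycle genes were kept for clustering, where most cycling cells formed 1 unnamed cluster, and 13.4% when identity came from each cell's own marker sum. The KO macrophage-like share was 0 in the joint clustering, where the cell fell in an unnamed cluster. Thinned at 3 UMIs, 1.72% of basal duct-like, 0.974% of intercalated duct-like and 0 of acinar-like WT cells passed. The S phase list was detected in 64.2% at 5 UMIs, and thinning gave 22.4% for it and 68.7% for G2/M. Basal genes higher numbered 69 at 20 UMIs, 148 with no filter and 11 when thinned, where 952 genes had enough UMIs; lower, 8 with TMM and 2 when thinned. TMM moved the median log2 ratio of all genes from -0.01 to -0.15. For the single KO cell, genes higher numbered 3 with TMM, 64 at 20 UMIs, 218 with no filter and 3 when thinned, and genes lower 265 with TMM and 2 when thinned. Leaving out the deepest cycling cell of each library could not be run for KO, which has 1, so the WT cell alone was left out (26 higher, 6 lower), a choice made after the data were seen. No paired analysis was possible because each genotype is 1 library. KO cells held fewer UMIs than WT cells, and a KO share of 0 is bounded by the number of cells in its class.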
